A study of Mus musculus with 12 samples.

Results

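The cytotoxic granule genes described here are Gzma, Gzmb, Gzmk, Prf1, Srgn, Lamp1, Nkg7, Ctsw and Serpinb9, which were chosen by name as 9 of the 25078 genes in the deposited count table. RNA was sequenced from C57BL/6 donor T cells in the liver of irradiated WT BALB/c recipients on day 6 after transplantation. The cells were sorted as H-2Kb+ TCRβ+ and CD4+ or CD8+. All recipients were also given T cell-depleted bone marrow from WT C57BL/6 donors, so that the donor T cells were the one component of the graft whose genotype differed between groups. The T cells came from WT donors, from STAT3ko donors (Stat3 fl/fl with CD4-Cre, in which the CD4 promoter drives deletion in T cells) or from STAT3ko PD-1ko donors, which carry the same Stat3 deletion on a PD-1-/- background. There were 2 libraries for each genotype and subset, 12 in all, and each library held lymphocytes combined from 3 recipients. The 2 replicates of a group are therefore separate pools, and p-values measure the spread between pools. Library totals ranged from 21676125 to 24551477 counts. No group had PD-1ko alone, so PD-1 loss could be compared on a STAT3ko background only.

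Cytotoxic lymphocytes kill by releasing preformed granules toward a target cell. Perforin, encoded by Prf1, makes pores in the target membrane, and the granzymes are serine proteases that enter through them, with granzyme B cleaving caspases and their substrates after aspartate and granzyme A and granzyme K cutting after basic residues. Srgn encodes serglycin, the proteoglycan core on which granule contents are packed. Lamp1 is a membrane glycoprotein of lysosomes and lytic granules that appears at the cell surface upon degranulation, Nkg7 is a granule membrane protein required for full degranulation, Ctsw is a cathepsin of cytotoxic lymphocytes, and Serpinb9 encodes an inhibitor of granzyme B that protects the killer cell itself. In GVHD, perforin and granzyme killing is one of the routes by which donor T cells injure host tissue.

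The targeted genes were read first. Stat3 stood at 368 and 467 TMM CPM (counts scaled to library size by edgeR's TMM method) in the 2 WT CD4 libraries and at 397 and 384 in the 2 WT CD8 libraries, against 136 to 235 in the 8 libraries of the other genotypes. Pdcd1, which encodes PD-1, stood at 55.1 and 26.0 in CD4 and at 93.6 and 65.5 in CD8 STAT3ko PD-1ko libraries, against 235 to 454 in the other 8 libraries. Both genes thus separated the genotypes without overlap. Counts were made over whole genes, so reads inside and outside a deleted part were not told apart. By the edgeR test used below, the lower Stat3 level was called in STAT3ko PD-1ko against WT in both subsets and was not called in STAT3ko against WT in either. Cd4 was at 1241 to 1887 TMM CPM in CD4 libraries and at 0.356 to 2.73 in CD8 libraries. Cd8a in a CD4 library was 0.0414% to 0.957% of its level in the CD8 library of the same genotype and replicate number, with the highest share in replicate 2 of STAT3ko PD-1ko, and Cd8b1 was 0.796% to 3.32%, with the highest shares, 2.54% and 3.32%, in STAT3ko PD-1ko. Gzma in CD4 libraries was 10.8% to 20.7% and Prf1 17.1% to 44.6% of the CD8 level. The summed level of Cd8a and Cd8b1 was lower in CD8 STAT3ko PD-1ko libraries, at 1148 and 1173, than in CD8 WT libraries, at 2223 and 2394. Replicates also stood apart from each other in WT and STAT3ko, where macrophage markers were higher in replicate 2 and Ctla4 was higher in replicate 1 in both subsets. In bulk RNA, fewer expressing cells and less RNA per cell cannot be told apart.

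The 9 genes took up to 1.05% of all counts in a library. Their share was 1.05% and 0.973% in the CD8 WT libraries, 0.585% and 0.590% in CD8 STAT3ko, and 0.559% and 0.438% in CD8 STAT3ko PD-1ko. In CD4 libraries it ran from 0.255% to 0.461%, with replicate 1 above replicate 2 in each genotype. Gzma and Gzmb together made up 67.6% and 65.2% of the counts of the 9 genes in CD8 WT, 50.02% to 52.4% in the other CD8 libraries, 33.9% to 35.6% in CD4 WT 16.4% and 16.5% in CD4 STAT3ko, and 28.3% and 30.5% in CD4 STAT3ko PD-1ko. By count, Gzmb was at rank 3 and rank 5 of all genes in the CD8 WT libraries.

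**Figure D1:**
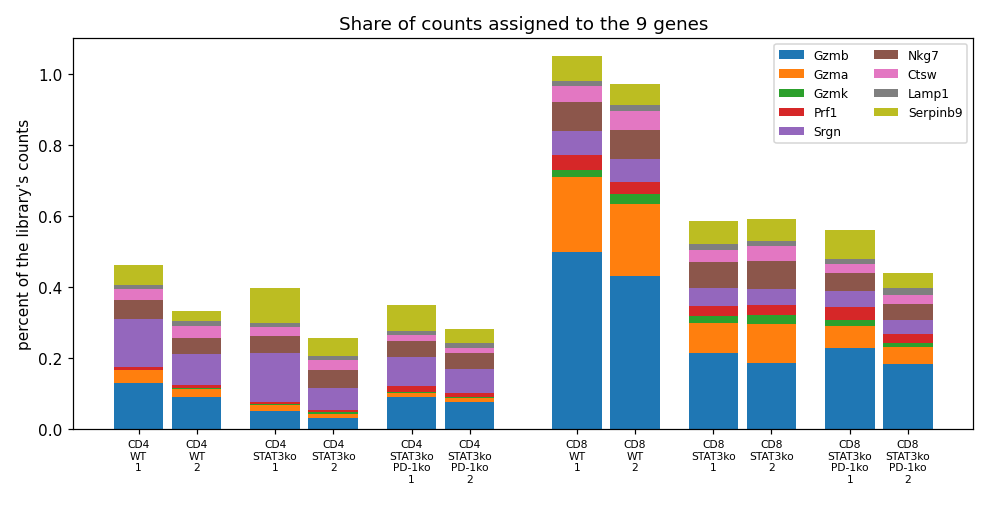
Stacked bars give the percent of each library's counts assigned to each of the 9 genes, for the 12 libraries ordered by subset, genotype and replicate. The 2 CD8 WT bars reach 1.05% and 0.973%, and most of their height above the other CD8 bars is Gzmb and Gzma.

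Levels of different genes were compared by the deposited RPKM, which divides by exon length. In CD8 WT libraries Gzmb led at 3500 and 2812 RPKM, followed without overlap by Gzma at 2541 and 2309 and by Nkg7 at 1059 and 999. Srgn at 416 and 368 and Ctsw at 336 and 383 overlapped each other, as did Gzmk at 198 and 235, Prf1 at 211 and 170, and Serpinb9 at 214 and 175. Lamp1 was lowest, at 74.5 and 68.4 RPKM. The order differed in CD4 WT libraries, where Gzmb (895 and 601 RPKM), Srgn (816 and 510) and Nkg7 (723 and 581) overlapped at the top. Prf1 at 35.6 and 40.1 and Gzmk at 21.2 and 18.4 RPKM were lowest there.

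The comparison of CD8 with CD4 libraries of the same genotype asked how the granule program divided between the subsets. The granzymes and perforin were far more abundant in CD8+ T cells in every genotype, while serglycin was not. In WT libraries 6 of the 9 genes were higher in CD8 and none lower at an adjusted p under 0.05 (edgeR quasi-likelihood test with Benjamini-Hochberg adjustment over all genes, used for every call below), where 10.5% of the 12334 genes tested were called, 4.91% higher and 5.59% lower. The log2 fold changes with standard errors were 3.45 ± 0.22 for Gzmk, 2.83 ± 0.24 for Gzma, 2.32 ± 0.23 for Prf1, 2.07 ± 0.27 for Gzmb, 0.70 ± 0.12 for Ctsw and 0.65 ± 0.12 for Nkg7. Srgn pointed the other way, at -0.77 ± 0.33, and did not pass (adjusted p = 0.206). Its TMM CPM was 1399 and 866 in CD4 WT against 704 and 626 in CD8 WT, and the CD4 libraries lay above the CD8 libraries in the other 2 genotypes as well. CD4+ and CD8+ cells came from the same livers, and with the replicate number as a block within each genotype Srgn was called lower in CD8 in all 3 genotypes, by -0.73 ± 0.19 in WT (adjusted p = 0.0264), -0.92 ± 0.20 in STAT3ko (adjusted p = 0.0104) and -0.85 ± 0.19 in STAT3ko PD-1ko (adjusted p = 0.0215). That fit called 24.3%, 24.9% and 14.4% of all genes. Lamp1 (111 to 139 TMM CPM in CD4, 138 to 169 in CD8) and Serpinb9 (307 to 1020 in CD4, 405 to 784 in CD8) passed in no genotype, although the blocked fit called Lamp1 in STAT3ko PD-1ko (0.33 ± 0.089, adjusted p = 0.042).

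In STAT3ko libraries the same 6 genes were called higher in CD8, against 9.62% of all genes called, 4.81% higher and 4.82% lower. In STAT3ko PD-1ko libraries 5 were called higher, against 4.14% of all genes called, 1.65% higher and 2.5% lower, and Nkg7 was not, with a log2 fold change of 0.10 ± 0.12. The fold changes of Gzmb and Prf1 were 1.30 ± 0.27 and 1.195 ± 0.23 there, against 2.30 ± 0.28 and 2.23 ± 0.23 in STAT3ko libraries. Whether these gaps differed between genotypes was tested as the interaction below. Without 1 of the 4 STAT3ko PD-1ko libraries the calls in that genotype numbered 3 (without CD4 replicate 1 or CD8 replicate 2) or 2 (without CD4 replicate 2 or CD8 replicate 1).

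**Figure D2:**
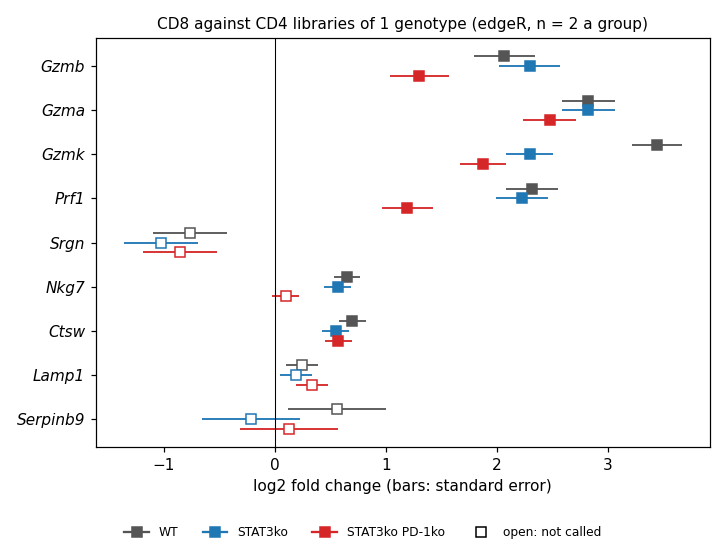
Squares give the edgeR log2 fold change of CD8 against CD4 libraries of 1 genotype for each of the 9 genes, with bars for the standard error, and filled squares were called. Gzmk, Gzma, Prf1 and Gzmb lie to the right of 0 in every genotype, from 1.195 to 3.45, and Srgn lies to the left.

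The comparison of STAT3ko with WT libraries asked what loss of STAT3 alone did to these genes. The means of Gzma and Gzmb were lower in STAT3ko than in WT libraries in both subsets, with no overlap between libraries. Neither gene was called by the edgeR test used here, which had the count filter, all libraries and no term for the replicate number. Some other fits did call them, as given below. Gzmb was at 1349 and 898 TMM CPM in CD4 WT and at 521 and 306 in CD4 STAT3ko libraries. In CD8 libraries it was at 5212 and 4206 in WT and at 2217 and 1845 in STAT3ko. Every STAT3ko library thus lay below every WT library of its subset, with log2 fold changes of -1.44 ± 0.28 in CD4 (adjusted p = 0.121) and -1.22 ± 0.16 in CD8 (adjusted p = 0.0970).

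Gzma was at 363 and 231 TMM CPM in CD4 WT and at 162 and 119.6 in CD4 STAT3ko, and at 2205 and 2012 in CD8 WT and 897 and 1104 in CD8 STAT3ko. The groups did not overlap in either subset, and the log2 fold changes were -1.07 ± 0.24 (adjusted p = 0.161) and -1.08 ± 0.16 (adjusted p = 0.120). Gzmk, another granzyme of the same chromosome 13 region, was at 23.3 and 20.1 TMM CPM in CD4 WT and at 53.1 and 36.9 in CD4 STAT3ko, a log2 fold change of 1.06 ± 0.20 (adjusted p = 0.117). In CD8 libraries its WT values of 215 and 257 overlapped the STAT3ko values of 194 and 248.

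In all, 0 of the 9 genes were called in CD4 and 0 in CD8 by edgeR, where only 0.334% and 0.0583% of all genes tested were called. At an unadjusted p under 0.05, 3 of 9 passed in CD4 (Gzma, Gzmb and Gzmk) against 10.5% of all genes, and 5 of 9 in CD8 (Gzma, Gzmb, Prf1, Srgn and Ctsw) against 11% of all genes. DESeq2 called the 3 genes in CD4, with adjusted p of 0.0028 for Gzma, 1.7e-04 for Gzmb and 0.0013 for Gzmk. It called Gzma and Gzmb in CD8. Of all genes tested, DESeq2 called 2.27% in CD4 and 1.82% in CD8. In CD8 all 9 log2 fold changes were below 0, with a median of -0.38 against -0.0062 over all genes, and 6 of the 9 genes had every STAT3ko library below every WT library, against 21.1% of all genes. In CD4 the median was -0.13 against 0.011 over all genes. The library titles number all replicate 1 libraries in 1 series and all replicate 2 libraries in another. With the replicate number as a term, edgeR called 4 of 9 in CD4, where 2.53% of all genes were called, and 1 in CD8, where 0.075% were. The adjusted p in CD4 were 0.0199 for Gzma, 0.0049 for Gzmb, 0.017 for Gzmk and 0.0152 for Serpinb9, and it was 0.0155 for Gzmb in CD8. Within replicate numbers 1 and 2, Gzmb differed by -1.37 and -1.55 in CD4 and by -1.23 and -1.19 in CD8 on the log2 scale, and Gzma by -1.16 and -0.95 in CD4 and by -1.30 and -0.87 in CD8.

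**Figure D3:**
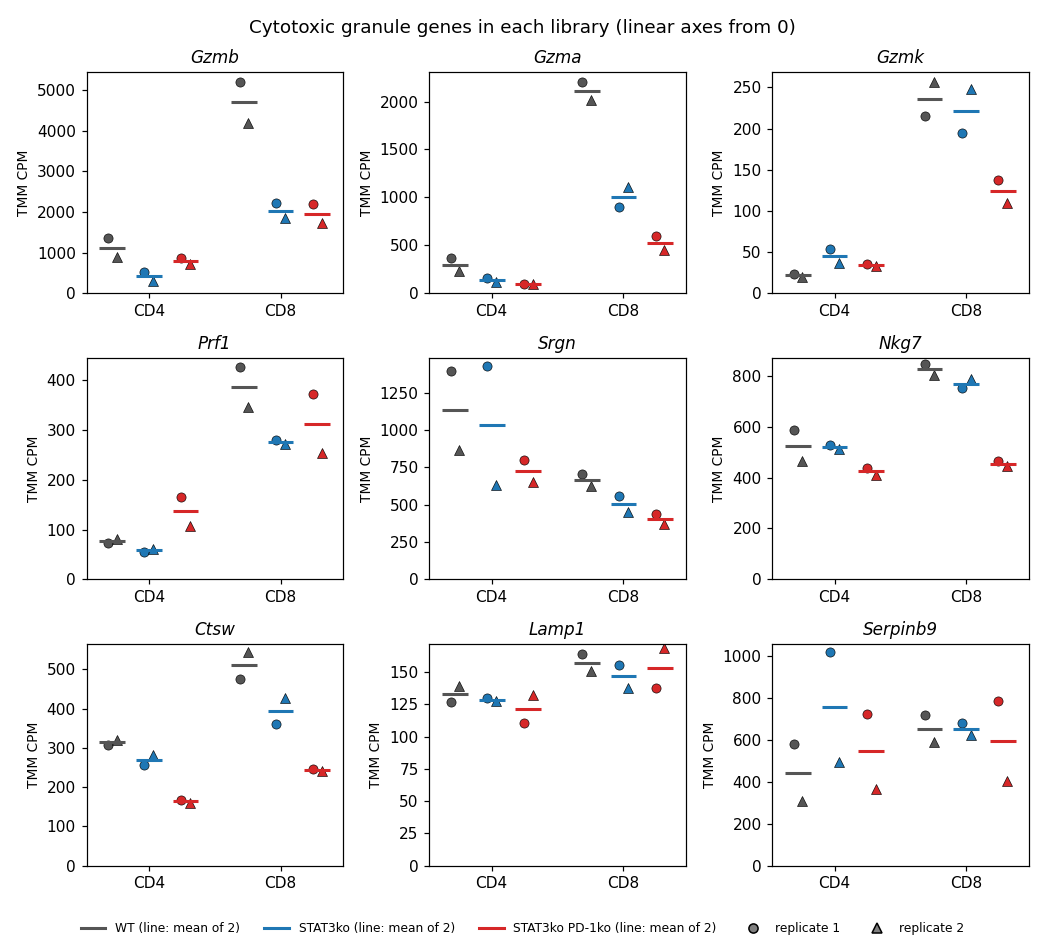
Each panel gives 1 gene in TMM CPM on a linear axis from 0, with circles for replicate 1, triangles for replicate 2, a line for the mean of the 2 and colors for genotype. Gzma values are highest in WT and lowest in STAT3ko PD-1ko in both subsets, Gzmb values of STAT3ko PD-1ko overlap those of STAT3ko in CD8 but not in CD4, and Serpinb9 is higher in replicate 1 than in replicate 2 in each group.

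In CD8+ T cells lacking both genes the granule program was lower for most of its genes. Of the 9 genes, 6 fell in STAT3ko PD-1ko against WT libraries and 0 rose, where 17.2% of all 12002 genes were called, 9.01% higher and 8.21% lower. Gzma fell most, from 2205 and 2012 to 593 and 455 TMM CPM, a log2 fold change of -1.9996 ± 0.16 (adjusted p = 0.0022). Gzmb fell from 5212 and 4206 to 2189 and 1735 (-1.25 ± 0.16, adjusted p = 0.0053). Ctsw fell from 476 and 544 to 246 and 239.9 (-1.06 ± 0.13), and Nkg7 from 848 and 803 to 464 and 445 (-0.85 ± 0.10). Gzmk at 138 and 109.8 TMM CPM was below WT by -0.92 ± 0.18, and Srgn at 435 and 369 by -0.72 ± 0.14. None of these 6 groups of values overlapped with WT, and in 29.8% of all genes every STAT3ko PD-1ko library likewise lay below every WT library.

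Prf1 was not called (-0.29 ± 0.19, adjusted p = 0.313), and its STAT3ko PD-1ko values of 372 and 254 TMM CPM overlapped the WT values of 426 and 346. Lamp1 and Serpinb9 also overlapped with WT. The median log2 fold change of the 9 genes was -0.85, against -0.00062 over all genes tested. Without replicate 2 of CD8 STAT3ko PD-1ko only Gzma was still called, at an edgeR adjusted p of 0.0389, and the number of calls over all genes then dropped from 2066 to 111. Without replicate 1 of the same group Srgn missed the threshold, as it did without replicate 1 of CD8 WT, and Gzmk missed it without replicate 2 of CD8 WT. The 8 T cell markers, summed, were also lower, at 4655 and 4531 TMM CPM in CD8 STAT3ko PD-1ko against 6468 and 5937 in CD8 WT. All 8 had log2 fold changes below 0, with a median of -0.43, and Cd2, Cd3d and Lck were called, as were both Cd8a and Cd8b1. The part of these lower marker levels in the results was not tested.

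Against STAT3ko libraries, which asks what PD-1 loss added in cells already lacking STAT3, 4 of the 9 genes were lower in CD8 STAT3ko PD-1ko libraries and 0 higher, where 16.8% of all genes were called, 8.76% higher and 8.05% lower. They were Gzma (-0.92 ± 0.16, adjusted p = 0.013), Gzmk (-0.83 ± 0.18), Nkg7 (-0.75 ± 0.10) and Ctsw (-0.68 ± 0.13). Gzmb was not among them. Its values of 2189 and 1735 overlapped the STAT3ko values of 2217 and 1845, with a log2 fold change of -0.04 ± 0.15. The RPKM ratio of Gzmb to Gzma was 2.15 and 2.22 in CD8 STAT3ko PD-1ko libraries, 1.44 and 0.974 in CD8 STAT3ko and 1.38 and 1.22 in CD8 WT. All 4 calls were lost without replicate 2 of CD8 STAT3ko PD-1ko, and 2 were lost without replicate 1 of that group (Gzmk and Ctsw) or without replicate 2 of CD8 STAT3ko (the same 2 genes). With the replicate number as a term Srgn was called as well (-0.32 ± 0.091, adjusted p = 0.0481), where 24.4% of all genes were called. The 8 T cell markers summed to 6032 and 5773 TMM CPM in CD8 STAT3ko against 4655 and 4531 in CD8 STAT3ko PD-1ko, with all 8 log2 fold changes below 0, a median of -0.32 and 2 called lower (Cd2 and Lck). Both Cd8a and Cd8b1 were called lower, with a median of -0.92, and of the 8 NK and innate-like markers 4 were tested and Klre1 and Klrc2 were called lower. The part of these markers in the results was not tested. The 2 comparisons of STAT3ko PD-1ko with WT and with STAT3ko share the same STAT3ko PD-1ko libraries.

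In CD4+ T cells the pattern was mixed, with perforin higher and granzyme A lower. Of the 9 genes 1 rose and 2 fell in STAT3ko PD-1ko against WT libraries, where 12.9% of the 11959 genes tested were called, 7.21% higher and 5.65% lower. Prf1 was at 166 and 108 TMM CPM, above the WT values of 72.9 and 81.4, a log2 fold change of 0.84 ± 0.22 (adjusted p = 0.0435). Gzma fell from 363 and 231 to 94.3 and 94.1 (-1.63 ± 0.24, adjusted p = 0.0083), and Ctsw fell from 308 and 321 to 167 and 159.9 (-0.92 ± 0.14, adjusted p = 0.0087). Gzmb, at 872 and 721, lay below the WT values of 1349 and 898 but did not pass (-0.47 ± 0.28, adjusted p = 0.311). Gzmk, at 35.2 and 32.4 against 23.3 and 20.1, did not pass either (0.66 ± 0.20, adjusted p = 0.0731). Of the 8 T cell markers 1 (Cd2) was called lower in the same comparison, and of 3 CD4 T cell markers Cd40lg and Cd4, the latter at 1323 and 1241 against 1843 and 1880 TMM CPM, and their part was not tested.

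Against STAT3ko libraries, 1 gene was higher and 1 lower in CD4 STAT3ko PD-1ko, where 11.1% of all genes were called, 6.05% higher and 5.03% lower. Prf1 rose from 55.9 and 61.9 TMM CPM to 166 and 108 (1.23 ± 0.22, adjusted p = 0.0182), and Ctsw fell from 256 and 281 to 167 and 159.9 (-0.70 ± 0.14, adjusted p = 0.0242). Gzmb was higher in both STAT3ko PD-1ko libraries than in both STAT3ko libraries, 872 and 721 against 521 and 306, with a log2 fold change of 0.97 ± 0.28 that missed the threshold (adjusted p = 0.0666) and passed it in DESeq2 (adjusted p = 0.0105). The rise of Prf1 was 1.56 within replicate 1 and 0.79 within replicate 2 on the log2 scale. Without either CD4 STAT3ko PD-1ko library both comparisons called 0 of the 9 genes, and the calls over all genes against WT dropped from 1538 to 147 without replicate 1 and to 62 without replicate 2. Prf1 against WT was also lost without either CD4 WT library, and Ctsw against STAT3ko without replicate 2 of CD4 STAT3ko. With the replicate number as a term each comparison called 5 of the 9 genes, against 26% of all genes. Against WT the added calls were Gzmb, lower (adjusted p = 0.0447), and Gzmk, higher (adjusted p = 0.0148), and against STAT3ko they were Gzma, lower (adjusted p = 0.0427), Gzmb, higher (adjusted p = 0.003), and Serpinb9, lower. In the main fit against STAT3ko, 4 NK and innate-like and 4 regulatory T cell markers were tested. In each of these 2 lists 1 was called higher and 2 lower. All 3 CD4 T cell markers were below 0 with 0 called, and the part of these markers was not tested.

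**Figure D4:**
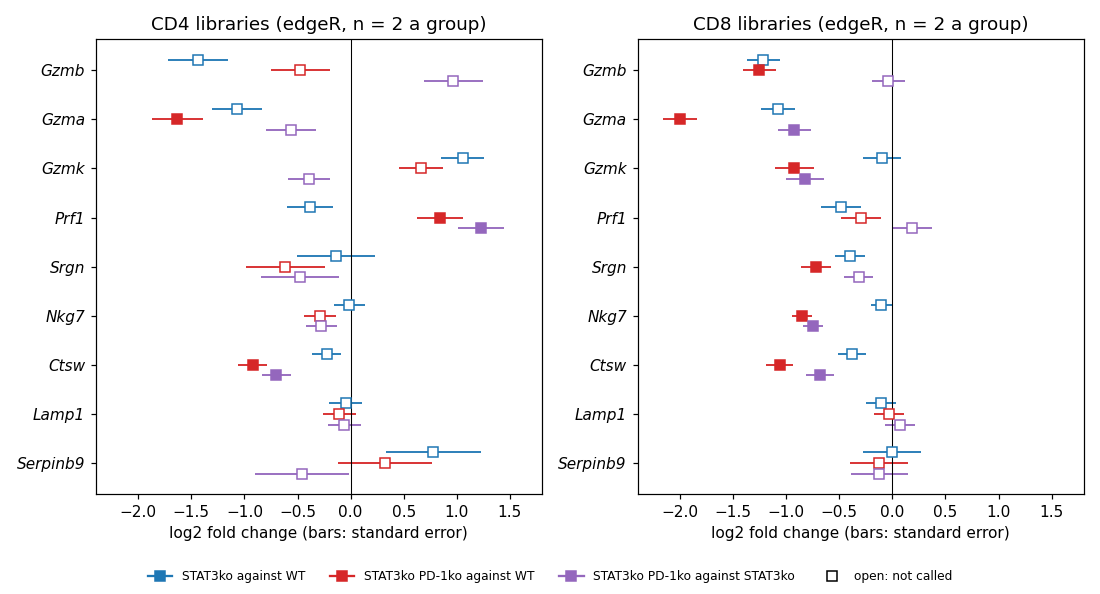
Squares give edgeR log2 fold changes between genotypes for each of the 9 genes, with bars for the standard error, in CD4 libraries at the left and CD8 libraries at the right, and filled squares were called. No blue square (STAT3ko against WT) is filled, and the filled CD8 squares all lie to the left of 0, while Prf1 is filled to the right of 0 in CD4 only.

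A test of the difference itself asked whether the genotype effects were unlike in the 2 subsets. For STAT3ko PD-1ko against WT, 0 of the 9 genes were called in the interaction, where 0.00811% of all genes were called, which was 1 gene (Ccl5, a chemokine gene, named after its value was seen). At an unadjusted p under 0.05 there were 3 genes among the 9, against 4.43% of all genes. They were Gzmk with a log2 difference of -1.57 ± 0.29 (adjusted p = 0.129), Prf1 with -1.13 ± 0.32 (adjusted p = 0.441) and Nkg7 with -0.55 ± 0.17 (adjusted p = 0.549). DESeq2 called Gzmk, with an adjusted p of 3.2e-04, where 0.608% of all genes were called. Gzmk values were above WT in both CD4 STAT3ko PD-1ko libraries and below WT in both CD8 libraries of that genotype, and edgeR called this difference without the count filter, where 0.283% of all genes were called, but not with it. With the replicate number as a block within each genotype, edgeR called Prf1 (-1.11 ± 0.16, adjusted p = 0.0253) and not Gzmk (adjusted p = 0.0516), where 0.681% of all genes were called.

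For STAT3ko against WT, edgeR and DESeq2 each called 0 of the 9 genes, beside 0% and 0.0405% of all genes. At an unadjusted p under 0.05 only Gzmk passed (-1.15 ± 0.29), against 1.85% of all genes. For STAT3ko PD-1ko against STAT3ko, edgeR and DESeq2 again called 0 of the 9, beside 0% and 0.17% of all genes. In edgeR, Gzmb (-0.996 ± 0.37), Prf1 (-1.04 ± 0.32) and Nkg7 (-0.47 ± 0.17) passed at an unadjusted p under 0.05, against 3.59% of all genes. A difference between the subsets was thus called in STAT3ko PD-1ko against WT for Gzmk by DESeq2 and by edgeR without the count filter, for Prf1 by edgeR with the block, and for none of the 9 genes by edgeR with the filter and without the block.

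The 9 genes did not move as a block. Over the 12 libraries, with the mean of each subset subtracted from the log2 level, Gzma went most closely with Ctsw (r = 0.895), Nkg7 (0.825) and Srgn (0.774), and Gzmb less closely with Gzma (0.702), Srgn (0.607) and Prf1 (0.524). Some pairs went differently in the 2 subsets, each of 6 libraries. Prf1 and Gzma had r = -0.495 in CD4 and 0.593 in CD8, Prf1 and Srgn -0.415 and 0.672, and Prf1 and Ctsw -0.757 and 0.35. Gzma and Gzmk had r = -0.558 in CD4 and 0.866 in CD8. These are descriptions over libraries that share genotype, with no test.

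By the same measure, among the 8704 genes whose log2 CPM averaged 3 or more, the genes most like Gzma were Nipal1 and Fxyd5 (both r = 0.97), Bet1l (0.964), Pstpip1 (0.962) and Pkp3 (0.959). Those most like Gzmb were Fhl2 (0.93), D1Ertd622e (0.925), Gadd45g (0.914), Esm1 (0.899) and Nab1 (0.897). Esm1, for example, averaged 62.4 TMM CPM in CD8 WT, 22.7 in CD8 STAT3ko and 17.3 in CD8 STAT3ko PD-1ko. Those most like Gzmk were Ifit2 (0.941), Rras2 (0.891), Klrk1 (0.877), Ifit1bl1 (0.871) and Ly6c2 (0.867), and Klrk1, which encodes the receptor NKG2D, averaged 31.9 TMM CPM in CD4 WT, 136 in CD4 STAT3ko and 66.8 in CD4 STAT3ko PD-1ko. Those most like Prf1 were Cd244a (0.887), Vax2 and Pik3r6 (both 0.879), Bend4 (0.851) and Adap1 (0.832).

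Gzmc and Gzmf were higher in CD8 STAT3ko PD-1ko libraries, where Gzma was lower, and Gzmm was lower too. Gzmb lies at chr14:56258836-56262334 (mm10, minus strand) at 1 end of a cluster with Gzmc, Gzmf, Gzmn, Gzmg, Gzmd and Gzme, and Gzma and Gzmk lie together on chromosome 13. Of the 7 other granzymes 5 had enough counts to be tested. Gzmd and Gzme passed the count filter only through the STAT3ko PD-1ko libraries, so that they had to differ, and they are given by their counts alone. In CD8 STAT3ko PD-1ko libraries Gzmc and Gzmf rose and Gzmm fell against WT, and the same held against STAT3ko. Gzmf was at 2.85 and 5.27 TMM CPM in CD8 WT, at 3.71 and 1.35 in CD8 STAT3ko and at 48.8 and 57.0 in CD8 STAT3ko PD-1ko (3.71 ± 0.44 against WT, adjusted p = 0.0049). Gzmc was at 12.4 and 13.3, at 10.2 and 5.397, and at 54.6 and 61.7 in the same order (2.19 ± 0.27 against WT, adjusted p = 0.0051). Every STAT3ko PD-1ko library lay well above all others of its subset.

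In CD4 libraries Gzmf was at 0.727 and 0.212 TMM CPM in WT, at 1.13 and 0.311 in STAT3ko, and at 14.0 and 15.9 in STAT3ko PD-1ko (5.02 ± 0.60 against WT, adjusted p = 0.0049). Gzmc rose against STAT3ko (2.26 ± 0.47, adjusted p = 0.0287) and was at 19.2 and 25.2 against 10.0 and 7.70 in WT, where it was not called. Gzmd and Gzme had few reads. Gzmd had 0 counts in all 4 CD4 WT and STAT3ko libraries and 11 counts in each CD4 STAT3ko PD-1ko library. Gzme had 17 and 20 counts in CD4 STAT3ko PD-1ko against 0 and 1 in WT, and 54 and 56 against 0 and 6 in CD8. Gzmg had at most 2 counts in a library and Gzmn 0 in all 12.

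Gzmm, which encodes granzyme M, was at 9.69 and 8.11 TMM CPM in CD8 WT, 9.62 and 12.5 in CD8 STAT3ko and 3.05 and 3.14 in CD8 STAT3ko PD-1ko (-1.51 ± 0.23 against WT, adjusted p = 0.0091). In CD4 it was called against STAT3ko alone (-0.94 ± 0.21, adjusted p = 0.0335), and that call was lost without any 1 of the 4 libraries compared. Without replicate 2 of CD8 STAT3ko PD-1ko, Gzmc, Gzmf and Gzmm missed the threshold in both CD8 comparisons, at adjusted p of 0.0575 to 0.072. Gzmf in CD4 missed it against WT without replicate 2 of STAT3ko PD-1ko (adjusted p = 0.0612) and against STAT3ko without either of the 2, as did Gzmc against STAT3ko.

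**Figure D5:**
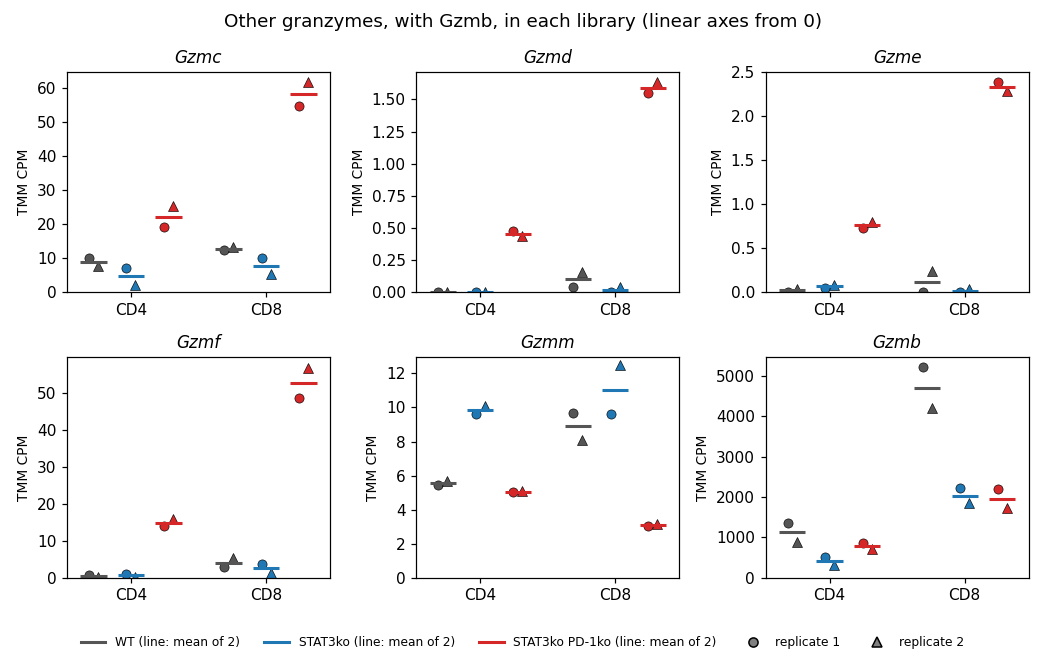
Panels give Gzmc, Gzmd, Gzme, Gzmf, Gzmm and, for comparison, Gzmb in TMM CPM on linear axes from 0, with symbols for replicates and colors for genotype. In both subsets the STAT3ko PD-1ko values of Gzmc, Gzmd, Gzme and Gzmf stand above those of the other genotypes, while Gzmb is highest in WT.

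Because these neighbors are similar in sequence, reads could be split among them. Of all 51-base words, the length of the reads, in the annotated transcripts of Gzmd and Gzme, 21.1% and 19.7% also occur in transcripts of other genes, mostly each other and Gzmg, against 7.02% for Gzmf, 3.79% for Gzmc and 0% for Gzma, Gzmb, Gzmk and Gzmm. The values of Gzmd and Gzme are thus uncertain between those genes. Of the 9 genes only Serpinb9 shared any words, 0.349% with Serpinb9b. Ctsw overlaps Fibp on the opposite strand, and whether counting used strand is not stated, so its reads at the overlap cannot be told apart from those of Fibp. Fibp was at 25.2 to 33.5 TMM CPM in the 12 libraries and was called in none of the comparisons.

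The DNA before the start of these granzyme genes is shown because neighbors of 1 cluster moved in opposite directions in CD8 STAT3ko PD-1ko against WT. The 250 bases before the start of Gzmb (chr14:56262335-56262584), Gzmc (chr14:56234658-56234907), Gzmf (chr14:56211408-56211657) and Gzme (chr14:56120626-56120875), all on the minus strand of GRCm38.p6 (the mm10 build) from RefSeq, follow 5′ to 3′, with capitals for matches to 4 short motifs searched on both strands: TTCNNNGAA (a STAT dimer site), GGTGTGA (T-box), TGTGGT (RUNX) and TGANTCA (AP-1).
Gzmb: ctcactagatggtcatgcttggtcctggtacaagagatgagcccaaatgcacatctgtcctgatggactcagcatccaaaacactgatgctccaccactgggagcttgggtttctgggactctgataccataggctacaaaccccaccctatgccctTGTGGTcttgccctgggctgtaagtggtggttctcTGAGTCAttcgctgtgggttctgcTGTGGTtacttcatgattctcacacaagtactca
Gzmc: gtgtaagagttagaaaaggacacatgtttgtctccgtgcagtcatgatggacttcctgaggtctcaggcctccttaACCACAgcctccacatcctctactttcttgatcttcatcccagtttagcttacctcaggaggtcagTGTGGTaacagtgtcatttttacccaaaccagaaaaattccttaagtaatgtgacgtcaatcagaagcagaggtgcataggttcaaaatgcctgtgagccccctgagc
Gzmf: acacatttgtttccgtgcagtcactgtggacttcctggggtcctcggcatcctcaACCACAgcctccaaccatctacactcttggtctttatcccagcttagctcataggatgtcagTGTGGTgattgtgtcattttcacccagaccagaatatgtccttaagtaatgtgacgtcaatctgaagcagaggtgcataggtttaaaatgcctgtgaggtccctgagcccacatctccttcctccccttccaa
Gzme: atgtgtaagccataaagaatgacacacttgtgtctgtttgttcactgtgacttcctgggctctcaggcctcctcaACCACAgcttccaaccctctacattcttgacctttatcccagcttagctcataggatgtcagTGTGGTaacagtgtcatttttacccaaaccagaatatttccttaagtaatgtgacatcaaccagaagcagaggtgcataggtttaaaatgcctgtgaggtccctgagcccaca
In Gzmb the capitals are, in order, a RUNX word at -93, an AP-1 word at -58 and a RUNX word at -34 from the start. In Gzmc, Gzmf and Gzme they are a RUNX word on the minus strand and another on the plus strand, 66, 62 and 62 bases apart, and Gzmd and Gzmg held the same pair 62 bases apart. At least 2 RUNX words in 250 bases occur in 1.27% of 32851 promoters. These neighbors are similar in sequence, so they are not independent cases beside that share. No motif matched in Gzmn, which had no counts, but Gzmg, which held the pair, also had too few counts to be tested.

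Of the 9 genes, 8 had a promoter sequence in the table, read as 250 bases before to 50 after the start. A RUNX word, present in 16.8% of all promoters, was found in 7 of the 8, all but Gzmk. A T-box word, in 3.98% of promoters, was found in Gzmk at -75 and in Nkg7 at -13. A STAT word, in 8.3% of promoters, was found in Nkg7 at -220 and in Gzmb at 38, which is after the start. An AP-1 word, in 7.81% of promoters, was found in Gzmb alone. These are matches of letters in a short window, and binding was not measured.

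Genes that make, sort and release granules were read from lists chosen by function. Of 24 genes of granule exocytosis 22 were tested, and in CD8 STAT3ko PD-1ko against WT 5 fell and 0 rose, beside 8.21% and 9.01% of all genes, with a median log2 fold change of -0.22 against -0.00062 over all genes. Syt11 fell from 78.9 and 72.8 to 29.6 and 29.3 TMM CPM (-1.35 ± 0.13, adjusted p = 0.0028). Sytl2, a synaptotagmin-like protein that binds Rab27a, fell from 275 and 219 to 132 and 98.8 (-1.09 ± 0.17, adjusted p = 0.0095). The next was Stx8, an endosomal SNARE (-0.52 ± 0.13), ahead of Unc13d, which encodes the priming factor Munc13-4 (-0.44 ± 0.12). Coro1a fell by 0.38 ± 0.088. Stx8 and Unc13d lost the call without any 1 of the 6 CD8 libraries, and Coro1a without 5 of the 6. In CD4 libraries the same comparison called Syt11 (-1.57 ± 0.17) and Sytl2 (-1.44 ± 0.21) alone, of 22 tested, where 5.65% of all genes were called lower, with a median of -0.13. Against STAT3ko both fell again in both subsets, where 5.03% of all genes were called lower in CD4. In CD8 Vamp8, an endosomal SNARE, rose (0.61 ± 0.14) and Unc13d fell (-0.56 ± 0.12), beside 8.76% and 8.05% of all genes. The Vamp8 and Unc13d calls were each lost in 4 of the alternative fits. Rab27a itself was called in none of the comparisons between genotypes. In STAT3ko against WT 0 of the 22 were called by edgeR in either subset, with 1 in CD4 and 2 in CD8 at an unadjusted p under 0.05, against 10.5% and 11% of all genes.

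Of 16 genes for granule proteases and lysosomal sorting 14 were tested. In CD8 STAT3ko PD-1ko against WT 3 rose and 4 fell, beside 9.01% and 8.21% of all genes, with a median log2 fold change of -0.077. Ctsd, which encodes cathepsin D, fell from a mean of 1422 to 805 TMM CPM (-0.81 ± 0.10, adjusted p = 0.0051). Hexa (-0.72 ± 0.17) and Gnptg, which encodes a subunit of the enzyme that makes the mannose 6-phosphate tag (-0.66 ± 0.14), fell as well, as did Igf2r, a receptor for that tag (-0.46 ± 0.10). The other tag receptor, M6pr, rose (0.41 ± 0.11), with Gusb (0.65 ± 0.15) and the chaperone gene Calr (0.63 ± 0.17). In CD4 against WT only Ctsd was called of the 14 (-0.46 ± 0.12, adjusted p = 0.0474), where 12.9% of all genes were, and the call was lost without any 1 of the 6 CD4 libraries. M6pr likewise lost its CD8 call without any 1 library. Against STAT3ko, Gusb was higher in CD4 (0.79 ± 0.20) and CD8 (0.79 ± 0.15) STAT3ko PD-1ko libraries, and Ctsd (-0.58 ± 0.10), Gnptg (-0.56 ± 0.14) and Igf2r (-0.40 ± 0.10) were lower in CD8. These calls were each lost in 2 to 4 of the alternative fits. All 7 CD8 calls of this list against WT were lost without replicate 2 of CD8 STAT3ko PD-1ko.

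Of 8 genes for inhibitors that act on granule proteases or cell death, all tested, 2 rose in CD4 STAT3ko PD-1ko against WT, where 7.21% of all genes did. Serpinb9b, a close relative of Serpinb9, rose from 29.5 and 20.02 to 102 and 73.0 TMM CPM (1.85 ± 0.28, adjusted p = 0.0088), and Birc5 rose from a mean of 106 to 170.2. The Birc5 call was lost without replicate 2 of CD4 WT or without either CD4 STAT3ko PD-1ko library. Serpinb9b was at 93.0 and 61.9 in CD4 STAT3ko, where it was called against WT by DESeq2 (adjusted p = 7.3e-06), and by edgeR without the count filter, with the replicate block or without replicate 2 of CD4 STAT3ko, but not otherwise. In CD8 libraries Serpinb9b stayed between 27.0 and 39.7 TMM CPM. Serpina3g and Serpina3f fell in CD4 STAT3ko PD-1ko against STAT3ko (-0.69 ± 0.17 and -0.84 ± 0.18), where 5.03% of all genes were called lower. The span of Serpina3f lies within that of Serpina3g, so reads where the 2 overlap may not be told apart. The Serpina3g call was lost in 5 of the 6 fits without 1 library and the Serpina3f call in 3 of 6. In CD8 STAT3ko PD-1ko against WT Serpina3f rose (0.83 ± 0.18) and Serpinb1a fell, beside 9.01% and 8.21% of all genes. Their calls were lost in 4 and 3 of the alternative fits. Serpinb9 itself was called in no comparison without the replicate block. With it, Serpinb9 was called higher in CD4 STAT3ko than in WT (0.76 ± 0.105, adjusted p = 0.0152), where it went from 579 to 1020 TMM CPM within replicate number 1 and from 307 to 496 within 2, and lower in CD4 STAT3ko PD-1ko than in STAT3ko (-0.45 ± 0.10, adjusted p = 0.0185). In each of the 6 groups its replicate 1 was above its replicate 2.

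Of 12 transcription factor genes tied to the cytotoxic program, 1 rose and 4 fell in CD4 STAT3ko PD-1ko against WT, beside 7.21% and 5.65% of all genes. Eomes, a T-box factor of cytotoxic T cells, rose from 3.45 and 2.88 to 7.79 and 8.65 TMM CPM (1.40 ± 0.26, adjusted p = 0.0158). Tcf7 (-2.89 ± 0.24), Bcl6 (-2.20 ± 0.33), Id2 (-1.24 ± 0.15) and Hopx (-0.73 ± 0.18) fell. Against STAT3ko, Eomes rose in CD4 (1.14 ± 0.26) and Tcf7 (-2.10 ± 0.24), Bcl6 (-1.33 ± 0.32), Hopx (-0.98 ± 0.19) and Id2 (-0.64 ± 0.15) fell, beside 6.05% and 5.03% of all genes, while in CD8 Hopx alone was called (-1.26 ± 0.13). In CD8 libraries Hopx (-1.39 ± 0.13), Id2 (-1.38 ± 0.25) and Bcl6 (-2.16 ± 0.39) fell against WT and none rose, beside 8.21% and 9.01% of all genes. Tbx21, which encodes T-bet, was at 63.9 to 219 TMM CPM with wide spread between replicates, and was called between no genotypes. Without replicate 2 of CD8 STAT3ko PD-1ko, Sytl2, Id2 and Bcl6 missed the threshold against CD8 WT, while Syt11 and Hopx passed. In CD4 against WT, Sytl2, Serpinb9b, Eomes, Id2, Bcl6 and Hopx missed it without either CD4 STAT3ko PD-1ko library, while Syt11 and Tcf7 passed. Eomes and Hopx also missed it without either CD4 WT library. In CD4 against STAT3ko, Eomes, Tcf7, Bcl6, Hopx, Id2, Syt11 and Sytl2 missed it without either CD4 STAT3ko PD-1ko library. Id2 also missed it there without either CD4 STAT3ko library, and Eomes and Bcl6 without replicate 2 of CD4 STAT3ko.

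Between the subsets, several of these genes differed in every genotype. Of all genes, 10.5% were called in WT, 9.62% in STAT3ko and 4.14% in STAT3ko PD-1ko. Of the 12 transcription factor genes 1 was higher and 2 lower in WT and in STAT3ko, and 1 each way in STAT3ko PD-1ko. Eomes was higher in CD8 than in CD4 libraries by 3.24 ± 0.20 in WT, 3.03 ± 0.20 in STAT3ko and 1.36 ± 0.19 in STAT3ko PD-1ko, and Bcl6 was lower in all 3 genotypes, though in STAT3ko PD-1ko its call was lost when any 1 of 8 of the 12 libraries was left out and with limma on log2(RPKM + 1). Tcf7 was lower in CD8 in WT (-2.50 ± 0.28) and STAT3ko (-2.08 ± 0.28). Of the 8 inhibitor genes tested, Serpina3f and Serpina3g were lower in CD8 in all 3 genotypes, and Serpinb9b in STAT3ko and STAT3ko PD-1ko. Serpinb1a and Birc5 were higher in WT and STAT3ko. Of the 14 proteases and sorting genes tested, Cst7, Igf2r and Gnptab were higher in CD8 in WT and STAT3ko. Of the 22 exocytosis genes tested, Lyst alone was higher and Syt11 alone lower in the same 2 genotypes. These exocytosis calls were near the share of all genes, 4.91% higher and 5.59% lower in WT and 4.81% and 4.82% in STAT3ko. With the replicate block, Cst7, Gnptab, Lyst and Syt11 were called in STAT3ko PD-1ko as well, where 14.4% of all genes were called. Gzmf and Gzmm were called higher in CD8 WT, and Gzmm lost the call when any 1 of the 12 libraries was left out. In STAT3ko PD-1ko libraries none of Gzmc, Gzmf and Gzmm was called, where 4.14% of all genes were. With the replicate block Gzmc (1.40 ± 0.16) and Gzmf (1.82 ± 0.21) were called higher in CD8 and Gzmm (-0.70 ± 0.17) lower, where 14.4% of all genes were called.

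Markers of other cells that express granule genes were read beside these results. The 8 NK and innate-like markers summed to 18.0 to 30.2 TMM CPM in CD4 libraries and to 93.5 and 96.8 in CD8 WT, 73.2 and 97.8 in CD8 STAT3ko and 51.5 and 34.8 in CD8 STAT3ko PD-1ko. Klrb1c led in CD8 WT, at 48.9 and 56.2, 4 of the 8 markers were above 1 TMM CPM there, and Klra8 and Klra4 were at 0 in all 12 libraries. Their sum was thus lower in the CD8 group in which 6 granule genes fell, and its part in those results was not tested. The sort for TCRβ would remove NK cells, which lack it, while T cells can also express these receptors. In CD4 libraries 4 of the 8 NK and innate-like markers were tested. In CD4 STAT3ko PD-1ko against STAT3ko 1 was called higher and 2 lower, with a median log2 fold change of -0.85. Against WT 1 was called higher and 0 lower, and the part of these markers in the CD4 results was not tested. The 9 macrophage markers summed to 5.81 to 8.47 in replicate 2 of WT and STAT3ko and to 0.518 to 1.37 elsewhere, led by C1qa in CD4 WT, and the 8 neutrophil and mast cell markers to at most 1.36. The 4 regulatory T cell markers were led by Ctla4, at 1301 and 494 in CD4 WT, 1517 and 363 in CD4 STAT3ko and 667 and 526 in CD4 STAT3ko PD-1ko, and the part of this split between replicates was not tested. The 4 summed to 1675 and 889.6 TMM CPM in CD4 WT, 1823 and 690.5 in CD4 STAT3ko and 1063 and 834 in CD4 STAT3ko PD-1ko. In CD4 STAT3ko PD-1ko 2 of the 4, Foxp3 and Ikzf2, were called lower against WT and against STAT3ko, and Il2ra was called higher against STAT3ko. Foxp3, which encodes the defining transcription factor of these cells, was at 20.9 and 30.7 in CD4 WT, 16.3 and 25.1 in CD4 STAT3ko and 3.38 and 3.41 in CD4 STAT3ko PD-1ko, and the part of this difference in the CD4 results was not tested. The dendritic list was carried by Itgax, at 392 and 363 in CD8 WT, 220 and 243 in CD8 STAT3ko and 27.8 and 20.2 in CD8 STAT3ko PD-1ko, with its other markers near 0. The endothelial list was carried by Pecam1, at 110.2 to 198, and the B cell list by Cd79b, at 1.39 to 14.5. Hepatocyte markers summed to at most 1.10 TMM CPM.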

How the data were processed

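Donor T cells were sorted from liver, and per the paper's methods and the labels the authors sequenced them as 51-base single-end reads, aligned them to mm10 with STAR and counted reads per RefSeq gene with Htseq-count. The deposited table held counts, not normalized, for 25078 genes in 12 libraries, and RPKM values computed by the authors. Whether counting used strand is not stated.

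Counts were tested with edgeR 4.0.16 (R 4.3.3; TMM scaling, filterByExpr with a minimum count of 10 and total of 15, quasi-likelihood test) at a Benjamini-Hochberg adjusted p under 0.05. Genotypes were compared in 1 fit of 6 libraries per subset (11959 genes in CD4, 12002 in CD8, 3 residual degrees of freedom), and subsets and interactions in 1 fit of 12 libraries (12334 genes, 6 residual degrees of freedom). Each standard error given with an edgeR log2 fold change is its absolute value divided by the square root of the test's F statistic. It was not taken from the fit itself. With 2 against 2 libraries no exact permutation test could pass, and none was used. No pair of replicates agreed within counting noise. The fits were tested on simulated data. Deposited RPKM served for levels between genes and, as log2(RPKM + 1) or log2(RPKM + 0.1), for limma 3.58.1. DESeq2 1.42.0, RLE size factors, no count filter, a replicate block, a fit of the 4 libraries compared and leaving out each library were the other alternatives.

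Replicate numbers were taken to pair CD4 with CD8 libraries of 1 genotype, since both came from the same livers per the paper's methods and the differences between replicates correlated across genes at r = 0.642, 0.638 and 0.792 in WT, STAT3ko and STAT3ko PD-1ko.

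The 9 genes and all lists were chosen with earlier results of these data known. The text names the 9 genes, the targeted genes, from each list and comparison up to 3 called genes that rose most and 3 that fell most, and the 5 genes most alike (Pearson r of log2(CPM + 1)) to Gzma, Gzmb, Gzmk and Prf1. Against WT, Unc13d, Coro1a and Igf2r in CD8 and Hopx in CD4 fall outside that rule, as do Id2 in CD4 against STAT3ko and Ccl5, and were named after their values were seen. Differences within a replicate number used a pseudocount of 0.5. Promoters came from RefSeq (GRCm38.p6).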

Additional observations from a re-analysis of the deposited data

How the results depend on the processing

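Calls depended on the test more than directions did. The number of the 9 genes called in STAT3ko against WT was 0 by edgeR in each subset, but 3 in CD4 by DESeq2, 3 without the count filter and 4 with a replicate block, and 2, 2 and 1 in CD8. Over all genes these fits called 271, 165 and 303 in CD4 and 218, 66 and 9 in CD8, where edgeR called 40 and 7. With the replicate block the count was 5 in CD4 for STAT3ko PD-1ko against WT, where it was 3, and 5 against STAT3ko, where it was 2, while calls over all genes went from 1538 to 3104 and from 1324 to 3105. For the interaction of STAT3ko PD-1ko against WT it was 1 by DESeq2 and 1 without the filter (Gzmk in each), and 1 with a replicate block within each genotype (Prf1), with 75, 50 and 84 calls over all genes against 1. The cause of these differences was not tested.

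No label names a day or batch, although the titles number the libraries of each replicate number in a series of their own. The differences between replicates 1 and 2 correlated across genes between WT and STAT3ko at r = 0.761 in CD4 and 0.766 in CD8, between WT and STAT3ko PD-1ko at 0.369 and 0.191, and between STAT3ko and STAT3ko PD-1ko at 0.218 and 0.0447. The main tests had no replicate block.

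Leaving out 1 library at a time, where a lone library is assumed to vary like the other groups, gave 0 to 1 calls for STAT3ko against WT in CD4 and 0 to 0 in CD8. For STAT3ko PD-1ko against WT it gave 0 to 4 in CD4 and 1 to 6 in CD8, and against STAT3ko 0 to 3 and 0 to 4. For CD8 against CD4 it gave 5 to 6 in WT, 4 to 6 in STAT3ko and 2 to 5 in STAT3ko PD-1ko. The log2 fold change of Gzmb in CD8 STAT3ko PD-1ko against STAT3ko, which was near 0, lay between -0.23 and 0.11 and changed sign to 0.089 without CD8 STAT3ko replicate 1 and to 0.11 without CD8 STAT3ko PD-1ko replicate 2. Serpinb9 in CD4 STAT3ko PD-1ko against STAT3ko lay between -1.03 and 0.14, above 0 only without CD4 STAT3ko replicate 1. Prf1 in CD4 STAT3ko PD-1ko against WT missed the threshold with limma on log2 RPKM at either pseudocount.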
